A study of Mus musculus with 18 samples.

Results

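The genes described here are 3 noncoding genes, Gm13648, Gm15657 and Gm16215, the 4 protein-coding genes whose loci they overlap (Ttll10, Heg1, Muc13 and Clca3b), and Zeb1 and Zeb2, which are known targets of the miR-200 microRNAs. They are 9 of the 55487 genes in the deposited table. The noncoding genes were chosen by their values in UK14304 against DMSO vehicle, where they had a Benjamini-Hochberg adjusted p under 0.05, so that their values in that comparison are given as a description with no test. The values of norepinephrine against HCl vehicle were not used to choose them, and that comparison was tested. The choice did rest on an estimate of spread from all 18 libraries, so that test is not fully independent of the choice. Beyond the adjusted p that chose it, no p is given for Gm16215, which passed the filter on low counts only through the groups where it was high.

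RNA was measured in organoids, cultures of intestinal crypts that grow as closed epithelial structures, from the small intestine of female wild-type C57BL/6 mice. After several passages the organoids of 5 mice were given, for 4 days, 1 µM norepinephrine, an agonist of α- and β-adrenergic receptors (5 libraries), or 1 µM UK14304, a synthetic agonist of the α2-adrenergic receptors (5 libraries). The vehicle controls were HCl for norepinephrine (4 libraries) and DMSO for UK14304 (4 libraries), and mouse 5 had no vehicle library. The 4 other mice gave a library to each of the 4 groups. The study's mice were young adults, with no separate age given for the organoid donors, and organoids hold epithelium without the nerves, vessels and stroma of the intestine.

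The miR-200 family comprises 5 microRNAs in 2 genomic clusters and is abundant in epithelia. Its members bind the messenger RNAs of Zeb1 and Zeb2, transcription factors that repress epithelial genes such as Cdh1 and, in turn, the miR-200 genes themselves through E-boxes in their promoters. The primary transcript of a microRNA is cut in the nucleus to a hairpin, and the hairpin in the cytoplasm to the mature microRNA, which recognises its targets mainly through the seed, bases 2 to 8. The libraries were made from polyadenylated RNA, so they measure host transcripts and not mature microRNAs.

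Gm13648 was annotated on the minus strand of chromosome 4 (GRCm38, chr4:156052715-156059802) with 2 exons of 221 and 1315 bases. The hairpins of miR-200b and miR-200a lie in its intron, at 4052 and 4817 bases from its start, and the hairpin of miR-429 lies inside its second exon, at 5815 bases. Mature sequences from RefSeq (GRCm38.p6) are shown for the 3p arms of all 5 members, since they define the family that Gm13648 carries in part, with the seed in capitals.
miR-200b-3p, chr4:156055685-156055706: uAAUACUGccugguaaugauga
miR-200a-3p, chr4:156054911-156054932: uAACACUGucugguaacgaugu
miR-429-3p, chr4:156053916-156053937: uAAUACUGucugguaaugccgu
miR-200c-3p, chr6:124718324-124718346: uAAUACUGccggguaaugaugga
miR-141-3p, chr6:124717917-124717938: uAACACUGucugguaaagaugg

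All 5 lie on the minus strand. Among the 1679 mature mouse microRNAs of the table, the seed AAUACUG was found in 3, which were miR-200b, miR-200c and miR-429, and the seed AACACUG in 2, which were miR-200a and miR-141. The Gm13648 locus therefore holds both seeds. Against miR-200b-3p, miR-200c-3p had the same base at 20 of 22 positions, and miR-200a-3p, miR-429-3p and miR-141-3p each at 18 of 22.

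The promoter of Gm13648 is shown because the miR-200 genes are textbook targets of ZEB proteins. The RefSeq window runs from 250 bases before to 50 bases after the start (GRCm38.p6, chr4:156059753-156060052, minus strand), with E-boxes in capitals.
Gm13648 promoter: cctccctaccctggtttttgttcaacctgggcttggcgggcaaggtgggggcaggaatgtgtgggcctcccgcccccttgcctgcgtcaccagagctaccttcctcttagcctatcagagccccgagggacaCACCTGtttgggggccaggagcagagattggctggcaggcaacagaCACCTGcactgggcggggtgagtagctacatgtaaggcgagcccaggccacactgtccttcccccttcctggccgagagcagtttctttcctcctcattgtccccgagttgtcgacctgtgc

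The E-box searched was CAGGTG, or CACCTG on the other strand. It was present 2 times in the Gm13648 window, at -118 and -72 from the start. Of 32851 mouse promoter windows of the same length, 20.2% held at least 1 such E-box and 2.88% held at least 2. The windows of Ttll10, Heg1, Muc13, Clca3b and Zeb2 held none.

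Complements of the miR-200 seeds are present in the 3′ UTR of Zeb2 (ENSMUST00000176438.8, 4941 bases), which held 4 complements of AACACUG and 5 of AAUACUG. For each seed, the first 2 that are followed by an A, a base that favours targeting, are shown with the complement in capitals (GRCm38, minus strand).
Zeb2 site for miR-200a and miR-141, chr2:44988353-44988372: attttgtaCAGTGTTaaggc
Zeb2 site for miR-200a and miR-141, chr2:44987780-44987799: accagcttCAGTGTTaagct
Zeb2 site for miR-200b, miR-200c and miR-429, chr2:44988104-44988123: cagtgcatCAGTATTacgat
Zeb2 site for miR-200b, miR-200c and miR-429, chr2:44987742-44987761: acccgtgtCAGTATTagacg

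The 3′ UTR of Zeb1 (2401 bases) also held 4 complements of AACACUG and 5 of AAUACUG. In Zeb1, 0 and 3 of these were followed by an A, against 2 and 4 in Zeb2. A match of letters describes the sequence and does not show that the site is used.

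The other noncoding genes lie on the strand opposite to the genes they overlap. Gm15657, annotated as antisense, has 7 exons with 1517 bases on the minus strand of chromosome 16 (chr16:33770430-33796874), between Heg1 and Muc13, whose 3′ end and 5′ end it overlaps. Of its exon bases, 318 are also Heg1 exon and 184 are also Muc13 exon, and another 758 lie in Muc13 introns. Gm16215, a processed pseudogene, is a single exon of 637 bases on the plus strand of chromosome 3 (chr3:144847574-144848210), and all of it lies inside the intron after the first exon of Clca3b. Ttll10, in contrast, is on the same strand as Gm13648 and shares no exon base with it, but the second exon of Gm13648 lies wholly in a Ttll10 intron.

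**Figure D1:**
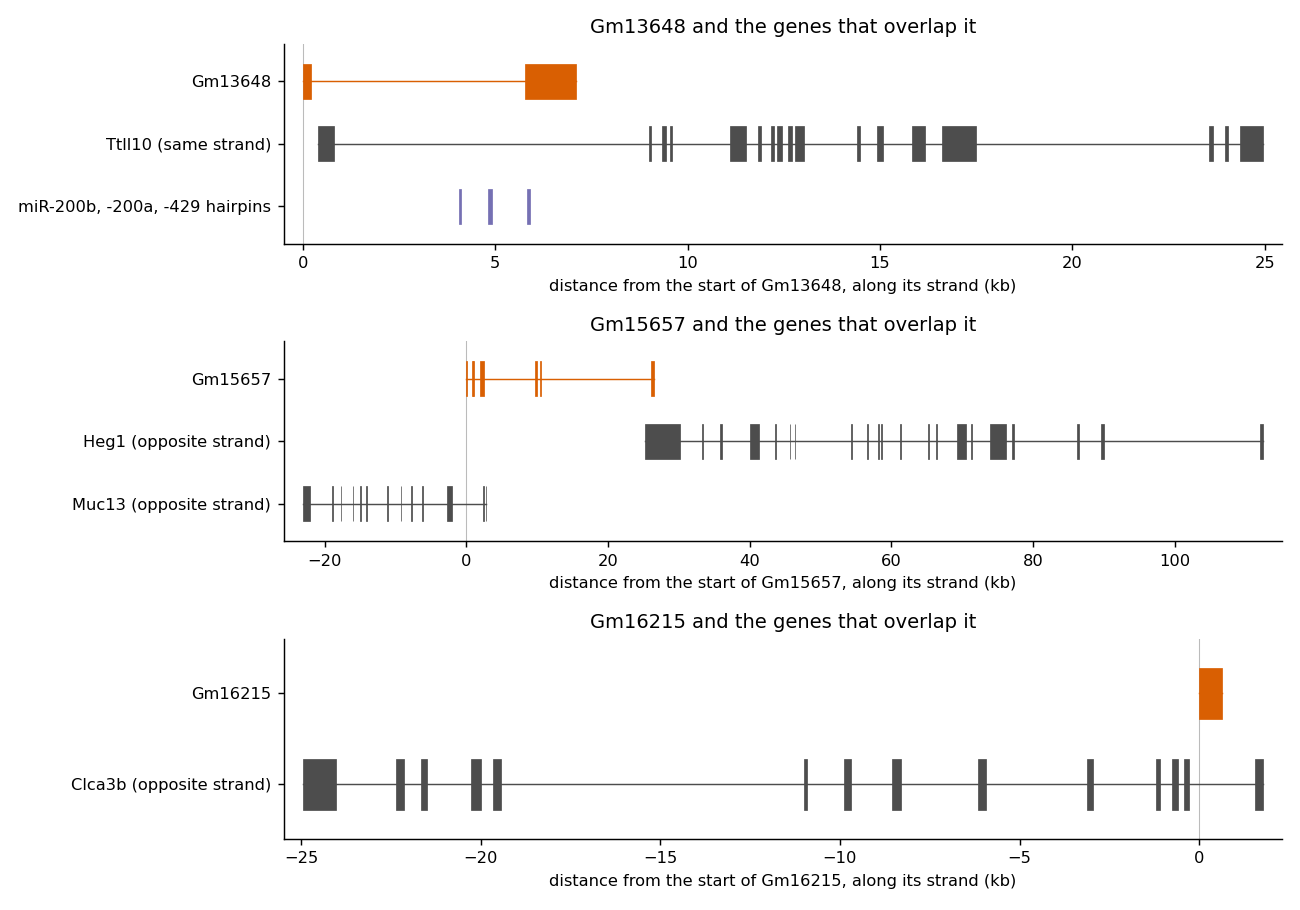
Exons (boxes) of the 3 noncoding genes in orange and of the overlapping genes in grey, and the miR-200 hairpins in violet, by distance in kb from the start of the noncoding gene along its strand. Gm16215 lies in an intron of Clca3b, Gm15657 touches both Heg1 and Muc13, and the miR-200b and miR-200a hairpins lie in the intron of Gm13648 and that of miR-429 in its second exon.

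The authors counted single 50 bp reads on exons, and the file header names no strand option. Without strand, counts per gene cannot tell reads of Gm15657 or Gm16215 from reads of unspliced RNA of Muc13 or Clca3b. The Gm15657 exons of 67 and 190 bases lie outside Heg1 and Muc13, but the counts are not split by exon. Reads of retained Ttll10 intron cannot be told apart from reads of the second Gm13648 exon either, on any setting of strand. The first Gm13648 exon, of 221 bases, lies outside Ttll10. A search of the annotated transcripts (blastn, at least 75% identity) matched 0 other genes for Gm16215 and only Mir429 inside it for Gm13648, and gave Gm15657, beside Heg1 and Muc13, a match of 51 bases in Asxl2 at 84.3% identity.

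Total counts were 21.9 to 27.9 M per library. Ribosomal RNA reads, those on CT010467.1, split the libraries by their share of all counts into 11 with 0.313% to 0.619% and 7 with 1.83% to 3.06%. The higher set held 3 of 4 DMSO, 1 of 5 UK14304, 1 of 4 HCl and 2 of 5 norepinephrine libraries, so that it was unequally spread over UK14304 and its vehicle. The summed level of 6 epithelial markers (Epcam, Cdh1, Krt8, Krt18, Vil1 and Cdx2) was 5648 to 6241 CPM, which are counts scaled to the size of each library with TMM factors. Those of mesenchyme, immune cells, endothelium and nerve and glia were 2.07 to 3.78, 2.30 to 3.68, 0.370 to 0.991 and 1.02 to 2.07 CPM. Of 8 mesenchymal markers, Pdgfrb stood at 1.79 to 3.39 CPM and alone passed the filter on low counts. Col1a1 had 1 to 5 counts per library, and Dcn and Lum were at 0 in every library. In bulk RNA, fewer cells of a type and less RNA per cell cannot be told apart.

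Norepinephrine against HCl vehicle gave 0 genes with an adjusted p under 0.05 among 15247 tested (0%; edgeR quasi-likelihood test), and 943 had an unadjusted p under 0.05. DESeq2 also called 0. With the mouse as a block the edgeR count was 16 (0.105%), of which none was among the genes described here. UK14304 against DMSO vehicle gave 6 genes (0.0394%), and 186 once the mouse was blocked (1.22%). In the comparison that chose the noncoding genes, Gm16215 had an adjusted p of 0.0163, Gm15657 of 0.0338 and Gm13648 of 0.0467 in edgeR. Gm13648 was the last gene inside the threshold, and the next, Rps10 and Gm49502, each had 0.0592. These values are the selection and not a result. Of the 9 genes, 7 passed the filter on low counts (0.405 CPM in enough libraries), and Zeb1 and Zeb2 did not.

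Gm13648, the host of 3 miR-200 microRNAs, was the most abundant of the noncoding genes. Its counts were 482, 524, 599 and 534 in the HCl libraries of mice 1 to 4 and 495, 395, 526, 526 and 465 in the norepinephrine libraries of mice 1 to 5. They were 594, 601, 535 and 518 with DMSO and 470, 419, 366, 317 and 410 with UK14304. All 5 UK14304 libraries lay below all 4 DMSO libraries, whereas the norepinephrine and HCl libraries overlapped. Mean levels were 23.1 ± 2.45 CPM with HCl (SD, n = 4), 19.8 ± 1.53 with norepinephrine (n = 5), 22.3 ± 1.69 with DMSO (n = 4) and 15.4 ± 2.25 with UK14304 (n = 5).

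With norepinephrine the log2 fold change of Gm13648 was -0.22 (SE 0.0957), a fold of 0.858, with an adjusted p of 0.713 in edgeR over all tested genes. It did not pass the test. Gm13648 was lower in 4 of 4 mice, by log2 differences from -0.40 to -0.01. The share of all tested genes that moved 1 way in 4 of 4 mice was not counted, here or for the genes below. With UK14304 the log2 fold change was -0.53 (SE 0.0962), a fold of 0.691, and the difference within mice ran from -0.82 to -0.42. Groups that did not overlap, with the agonist lower, were seen for 1.78% of tested genes with UK14304 and for 0.78% with norepinephrine.

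**Figure D2:**
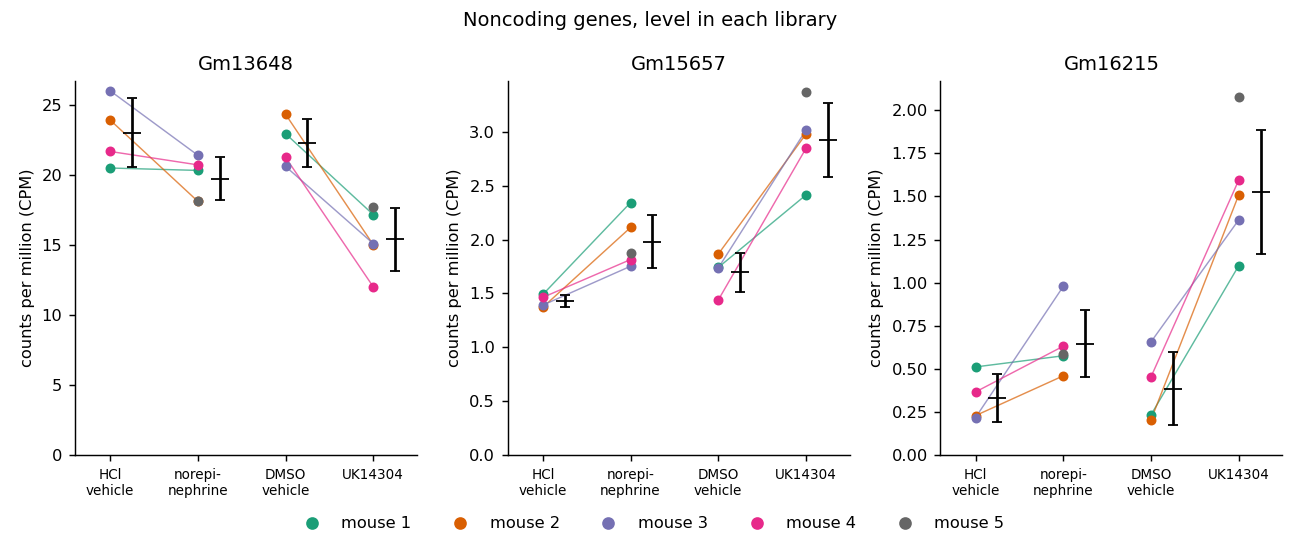
Level in CPM of Gm13648, Gm15657 and Gm16215 in each of the 18 libraries, by group, with 1 point a library coloured by mouse, lines joining the vehicle and agonist libraries of a mouse, and the black mark and bar giving the mean and SD of the group. Gm13648 with UK14304 lies at 12.0 to 17.7 CPM against 20.6 to 24.4 with DMSO, and Gm15657 and Gm16215 lie higher with UK14304 than with DMSO in every library.

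Ttll10, a member of the family of tubulin tyrosine ligase-like enzymes that acts as a glycylase, is the gene whose intron holds most of Gm13648. Its counts were 153, 188, 186 and 253 with HCl, 197, 170, 180, 247 and 214 with norepinephrine, 233, 220, 193 and 199 with DMSO, and 222, 229, 154, 176 and 186 with UK14304. The groups overlapped for both agonists. The log2 fold change with norepinephrine was -0.02 (SE 0.119, adjusted p = 0.972 in edgeR), and with UK14304 it was -0.16 (SE 0.119), lower in 4 of 4 mice.

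Per kb of exon counted for 1 gene only, Gm13648 stood at 15.9 ± 1.68 CPM with HCl and Ttll10 at 2.10 ± 0.390 (SD, n = 4), so that the host transcript had the higher level of the pair on this scale. With UK14304 these were 10.6 ± 1.55 and 1.88 ± 0.223 (n = 5). The log2 ratio of the 2 genes' counts was 1.47 ± 0.28 with HCl and 1.26 ± 0.18 with norepinephrine. The difference of -0.21 was within the spread (exact permutation test, two-sided, p = 0.206, 0.206 after adjustment over the 4 ratios tested), and without the HCl library of mouse 4 it was -0.35 (adjusted p = 0.0536 in the same exact test). With UK14304 the ratio was 0.37 lower than with DMSO, where the means were 1.03 ± 0.17 and 1.41 ± 0.06.

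The miR-200 hairpins themselves were hardly counted. Mir200a, in the intron of Gm13648, had 0 to 8 counts per library and Mir200b, in the same intron, had 0 to 3. Mir429 had 0 in all 18 libraries, which by counting error alone allows up to 3 counts in each. A read in its 83 bases also falls in an exon of Gm13648, and a read that overlaps 2 genes is left out under the default of featureCounts. Under that default the 0 of Mir429 sets no limit on its level. Mir200c and Mir141, the genes of the other cluster, had 0 to 2 and 0 to 1. None of the 5 passed the filter, and no difference in them could be measured.

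Zeb1 and Zeb2, the repressors that the miR-200 microRNAs target, were close to undetected. Zeb1 had 2, 1, 1 and 2 counts with HCl, 2, 3, 3, 1 and 2 with norepinephrine, 1, 0, 1 and 1 with DMSO, and 0, 1, 0, 0 and 2 with UK14304. Zeb2 summed to 3 counts over the HCl libraries, 2 over norepinephrine, 1 over DMSO and 1 over UK14304. Every library thus lay at or below 3 counts, which for Zeb1 was 0.138 CPM in the norepinephrine library of mouse 2, and no change in either gene could be measured.

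The 12 epithelial genes of the same circuit stood between 5.78 CPM (Ovol2) and 1544 CPM (Cdh1). None passed the test in either direction, for either agonist, with or without the mouse as a block. The nearest was Ovol1 with UK14304 and the block, at -0.19 (adjusted p = 0.0505 in edgeR). Of the 12, 2 were above 0 with norepinephrine and 2 with UK14304, beside 47.6% and 48.7% of all tested genes. This share was not tested. All 12 were tested, among them Cdh1 (E-cadherin), Epcam and Esrp1 (a splicing regulator of epithelia), and their median log2 fold changes were -0.06 with norepinephrine and -0.05 with UK14304, beside -0.01 and -0.00 over all tested genes. Those with the smallest p for norepinephrine were Cldn3, a tight junction claudin, at -0.25 (SE 0.0954, adjusted p = 0.713), and Crb3, a polarity protein, at -0.17 (SE 0.0796, adjusted p = 0.713; edgeR). Of 7 mesenchymal genes 2 could be tested, and neither passed. Snai2, a repressor of the Snail family, stood at 0.304 to 2.05 CPM, and Vim (vimentin) at 6.36 to 9.55 CPM. Snai1, Twist1, Twist2, Cdh2 and Fn1 did not pass the filter.

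Of 17 reported targets of miR-200, Zeb1 and Zeb2 included, 9 were tested and 0 passed for either agonist in either fit. Their median log2 fold change was 0.06 with norepinephrine and 0.04 with UK14304, and 7 and 6 of the 9 were above 0, beside 47.6% and 48.7% of all tested genes. Bmi1, a Polycomb protein of stem cells, had 0.23 (SE 0.116, adjusted p = 0.713) and Suz12, a subunit of Polycomb complex PRC2, had 0.15 (SE 0.0819, adjusted p = 0.713) with norepinephrine in edgeR. The list was drawn up with results of these data known. All 13 genes of microRNA processing were tested and 0 passed. Of these 13, 8 were above 0 with norepinephrine and 12 with UK14304, with median log2 fold changes of 0.05 and 0.09. The share above 0 was not tested. Dicer1, which cuts the hairpin to the mature microRNA, had a log2 fold change of 0.12 (SE 0.0531) and Tnrc6b, a partner of Argonaute, of 0.15 (SE 0.0669), each with an adjusted p of 0.713 for norepinephrine in edgeR.

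Gm15657, the antisense gene between Heg1 and Muc13, was counted at a lower level. It had 35, 30, 32 and 36 counts with HCl in mice 1 to 4 and 57, 46, 43, 46 and 48 with norepinephrine in mice 1 to 5. With DMSO it had 45, 46, 45 and 35, and with UK14304 66, 83, 73, 75 and 78. Every agonist library exceeded every library of its own vehicle, for both agonists. Mean levels were 1.43 ± 0.0568 CPM with HCl (SD, n = 4), 1.98 ± 0.245 with norepinephrine (n = 5), 1.69 ± 0.181 with DMSO (n = 4) and 2.92 ± 0.346 with UK14304 (n = 5).

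For norepinephrine the log2 fold change of Gm15657 was 0.47 (SE 0.141), a fold of 1.38, higher in 4 of 4 mice with differences of 0.30 to 0.63. The test gave an adjusted p of 0.713 in edgeR over 15247 genes, which does not pass, and 0.556 with the mouse as a block. Groups that did not overlap, with the agonist higher, were found for 0.643% of tested genes with norepinephrine and 1.72% with UK14304. With UK14304 the log2 fold change was 0.78 (SE 0.133), a fold of 1.72, and 0.45 to 0.95 within the 4 mice.

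Heg1, a transmembrane receptor that in endothelium binds the CCM protein Krit1, has 3′ exon bases in common with Gm15657. It had 291, 297, 249 and 306 counts with HCl and 282, 271, 289, 337 and 339 with norepinephrine. Its log2 fold changes were 0.02 with norepinephrine (SE 0.136, adjusted p = 0.974 in edgeR) and -0.08 with UK14304 (SE 0.135). With DMSO its counts were 297, 384, 251 and 290 and with UK14304 278, 410, 204, 302 and 294, and the groups overlapped. Of 8 genes of the Heg1 and CCM pathway 7 were tested and 0 passed. Pdcd10 and Krit1, both CCM genes, had the smallest p for norepinephrine, with log2 fold changes of 0.19 (SE 0.152, adjusted p = 0.738) and 0.08 (SE 0.0727, adjusted p = 0.767) in edgeR.

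Muc13, a transmembrane mucin of the enterocyte surface, was counted far more often than Gm15657. Its range was 23926 to 35578 counts per library, and its mean level was 1188 ± 121 CPM with HCl, 1178 ± 86.2 with norepinephrine, 1166 ± 119 with DMSO and 1171 ± 100.1 with UK14304. Groups overlapped for both agonists. The log2 fold change was -0.01 with norepinephrine (SE 0.0792, adjusted p = 0.970 in edgeR) and 0.01 with UK14304 (SE 0.0792).

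Counts of Gm15657 were 0.103% to 0.134% of those of Muc13 with HCl, 0.156% to 0.200% with norepinephrine, 0.123% to 0.171% with DMSO and 0.206% to 0.299% with UK14304. The mean log2 ratio of Gm15657 to Muc13 was 0.46 higher with norepinephrine than with HCl (exact permutation test, two-sided, p = 0.00794, the smallest these groups allow, 0.0317 after adjustment over the 4 ratios). That of Gm15657 to Heg1 was 0.43 higher (p = 0.0159 in the same exact test, 0.0317 adjusted). Both ratios were higher in 4 of 4 mice. Both ratios share the Gm15657 counts and are not separate results. Their adjustment covered the 4 ratios, whereas Gm15657 itself had an adjusted p of 0.713 in edgeR over 15247 genes. The permutation test ignored the pairing of mice and included mouse 5, which had no vehicle library. With the mice as pairs the exact sign-flip test gave p = 0.125, the smallest that 4 pairs allow. Leaving out any library but the HCl library of mouse 1 took the adjusted p of both ratios above 0.05, to 0.0536 to 0.0714, with the difference between 0.34 and 0.51.

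**Figure D3:**
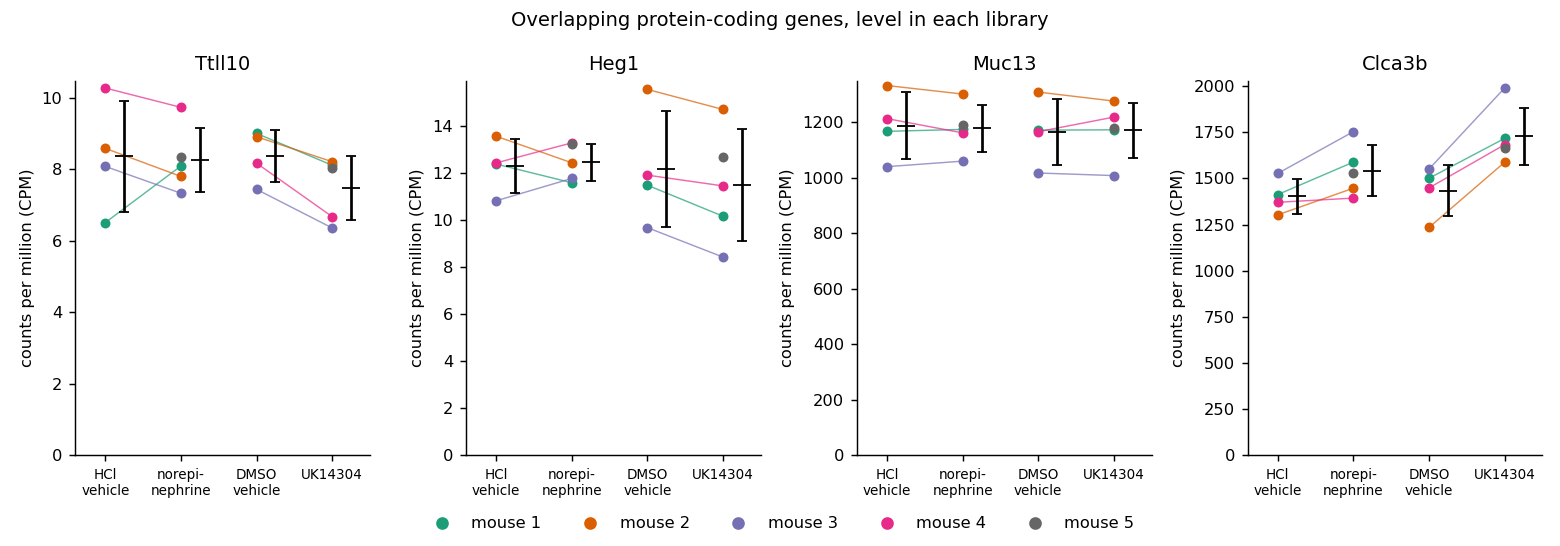
Level in CPM of Ttll10, Heg1, Muc13 and Clca3b in each of the 18 libraries, by group, with 1 point a library coloured by mouse, lines joining the libraries of a mouse, and the black mark and bar giving the mean and SD. Ttll10, Heg1 and Muc13 overlap between each agonist and its vehicle, and Clca3b is higher with each agonist than with its vehicle in 4 of 4 mice.

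Gm16215, the pseudogene inside Clca3b, had the lowest level of the 3 and the largest log2 differences. It had 12, 5, 5 and 9 counts with HCl and 14, 10, 24, 16 and 15 with norepinephrine, and 6, 5, 17 and 11 with DMSO against 30, 42, 33, 42 and 48 with UK14304. The UK14304 libraries did not overlap with DMSO, while norepinephrine and HCl overlapped in the range of 10 to 12 counts. Of all tested genes, 1.72% were higher without overlap with UK14304. Gm16215 was low in many libraries. It reached the filter level of 0.405 CPM in 1 of 4 HCl and 2 of 4 DMSO libraries but in all 5 of each agonist. It thus passed the filter only through the groups where it was high.

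With norepinephrine the log2 fold change of Gm16215 was 0.95 (SE 0.356), a fold of 1.93. No p is given, because Gm16215 passed the filter only through the groups where it was high. Its differences within mice were 0.15 to 1.83, higher in 4 of 4. With UK14304 the log2 fold change was 1.96 (SE 0.310), a fold of 3.90, and 0.97 to 2.48 within mice. The mean levels were 0.386 ± 0.212 CPM with DMSO (SD, n = 4) and 1.53 ± 0.359 with UK14304 (n = 5), against 0.331 ± 0.138 with HCl (n = 4) and 0.646 ± 0.196 with norepinephrine (n = 5).

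Clca3b, of a family of secreted metalloproteases named for effects on calcium-activated chloride channels, was counted 28506 to 48197 times per library. Its level was 1403 ± 94.4 CPM with HCl, 1543 ± 139.9 with norepinephrine, 1434 ± 139 with DMSO and 1728 ± 154 with UK14304. The log2 fold change with norepinephrine was 0.14 (SE 0.0762, adjusted p = 0.713 in edgeR) and the groups overlapped. Each of the 4 mice was higher with norepinephrine, by 0.02 to 0.20. Without the norepinephrine library of mouse 3 it was 0.09. With the mouse as a block and the trend on GC content removed, it passed at an adjusted p of 0.0491, and with the block alone it did not (0.541). With UK14304 it was 0.27 (SE 0.0764), with groups that did not overlap and 4 of 4 mice higher by 0.19 to 0.36. A higher agonist group without overlap was seen for 1.72% of tested genes with UK14304.

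Gm16215 had 0.0142% to 0.0362% of the counts of Clca3b with HCl, 0.0317% to 0.0557% with norepinephrine, 0.0155% to 0.0423% with DMSO and 0.0639% to 0.125% with UK14304. The mean log2 ratio was 0.77 higher with norepinephrine than with HCl, in 3 of 4 mice, and 0.58 to 0.98 higher when each library was left out in turn. No p is given for it, since Gm16215 passed the filter only through the groups where it was high. Of the 7 genes of the Clca family, which all were tested, 0 passed for norepinephrine, and Clca3a2, a neighbour of Clca3b, had a log2 fold change of 0.25 (SE 0.114, adjusted p = 0.713 in edgeR).

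**Figure D4:**
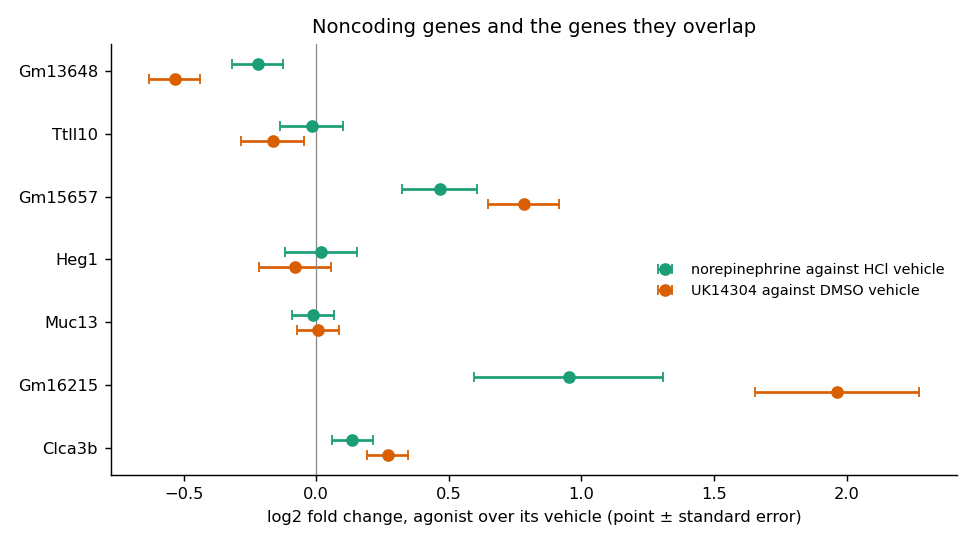
Log2 fold change of each agonist over its own vehicle, with the standard error, for the 3 noncoding genes and the 4 genes they overlap. Both agonists lie on the same side of 0 for Gm13648 (-0.22 and -0.53), Gm15657 (0.47 and 0.78), Gm16215 (0.95 and 1.96) and Clca3b (0.14 and 0.27), with the larger value for UK14304 in each, and Heg1 and Muc13 lie within 0.08 of 0.

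All 3 noncoding genes had the same sign with both agonists. The 2 comparisons shared no library, but they shared mice and the estimate of spread. How many of all tested genes had the same sign with both agonists was not counted, so this is a description. The larger UK14304 values of the 3 genes belong to the comparison that chose them. No test of the difference between the agonists is given, because the UK14304 values chose the genes.

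The ribosomal RNA share moved with the UK14304 comparison. Among the libraries under 1%, Gm13648 was at 12.0 to 17.7 CPM in 4 UK14304 libraries and 21.3 in the single DMSO library. Over 1% it was at 17.2 in the single UK14304 library and 20.6 to 24.4 in 3 DMSO libraries. Gm15657 was at 2.85 to 3.37 against 1.44 CPM in the lower set and 2.41 against 1.74 to 1.86 in the higher, and Gm16215 at 1.36 to 2.07 against 0.452 and 1.10 against 0.203 to 0.656. Each set had 1 lone library on a side, and these are values of the comparison that chose the genes, so the part of the ribosomal RNA share in them was not tested. For norepinephrine the lower set alone, with 3 libraries a group, gave log2 fold changes of -0.23, 0.54 and 1.06 for Gm13648, Gm15657 and Gm16215. No p is given for these values, since the fit held a single DMSO library.

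**Figure D5:**
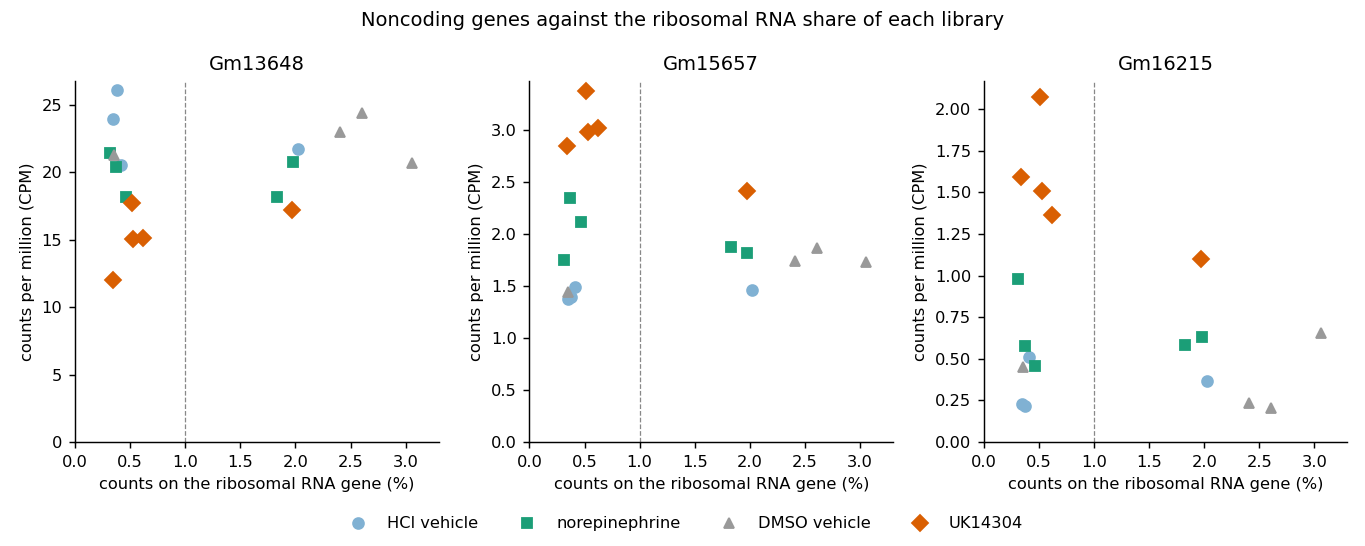
Level in CPM of the noncoding genes against the percent of counts on the ribosomal RNA gene in each library, with groups by colour and shape and the 1% line dashed. UK14304 libraries lie lowest for Gm13648 and highest for Gm15657 and Gm16215 on both sides of the line among UK14304 and DMSO libraries.

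Neighbouring genes were described by their position. Within 100000 bases of Gm13648 10 of 15 genes were tested and 0 passed for either agonist in either fit, with medians of 0.01 and -0.04, and Sdf4, a calcium-binding protein of the Golgi, had -0.08 (SE 0.0417, adjusted p = 0.713) with norepinephrine in edgeR. Around Gm15657 3 of 4 were tested and 0 passed, among them Itgb5, an integrin, at -0.09 (SE 0.0902, adjusted p = 0.785). Around Gm16215 5 of 9 were tested, all Clca genes but 1, and 0 passed for norepinephrine in either fit. With UK14304 0 passed without the block and 1 with it, which was Clca3b, in the comparison that chose the genes.

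Long noncoding genes as a class had 1678 tested of 13125. For norepinephrine 0 passed in either fit. With UK14304 2 passed, which were Gm15657 and Gm13648 by their choice, and with the mouse as a block 6 were higher and 11 lower, beside 27 higher and 159 lower of all 15247 tested genes. Gm2061 had the smallest p of these (log2 fold change -0.60, adjusted p = 0.00145 in edgeR with the block), and Gm16559 had 0.82 (adjusted p = 0.00604). The medians of the class were 0.06 with norepinephrine and 0.02 with UK14304. Noncoding genes and pseudogenes within introns of protein-coding genes at 100 CPM or more, on the opposite strand as Gm16215 is, numbered 136 tested. Their medians were 0.10 with norepinephrine and -0.00 with UK14304, beside 0.15 and 0.15 for 125 on the same strand. This grouping was made after the positions of the 3 genes were seen.

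Other gene lists that touch the locus genes gave few calls. Of 9 Ttll genes tested of 13, 0 passed, and Ttll7 (0.26, SE 0.127, adjusted p = 0.713) and Ttll13 (-0.58, SE 0.366, adjusted p = 0.722) had the smallest p for norepinephrine in edgeR. Of 6 transmembrane mucins tested of 9, Muc3 fell with UK14304 with the mouse as a block (-0.31, adjusted p = 0.0495) and not without it (0.679). Among 3 Paneth markers Lyz1, lysozyme, fell with the block for norepinephrine (-0.37, adjusted p = 0.00190) and for UK14304 (-0.31, adjusted p = 0.00310), and Ang4, an antimicrobial ribonuclease, for UK14304 (-0.27, adjusted p = 0.0220). Of 3 goblet markers Agr2 fell with UK14304 with the block (-0.16, adjusted p = 0.0324), while Muc2 stood at 0.11 and Tff3 at -0.23 without passing. Their part and that of the Paneth markers in the values of the noncoding genes was not tested.

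Over the 18 libraries the genes whose log2 CPM was most like that of Gm13648, by Pearson's r, were Gm29008 (0.938), Spaca4 (0.898) and Rps10 (0.896). For Gm15657 they were Txnip (0.911), Gm37113 (0.885) and E030022I16Rik (0.855), and for Gm16215 Rps12 (0.878), Gm45221 (0.858) and Gm15964 (0.858). The 18 points share mice and treatment groups, and 15246 genes were compared for each, so that these are descriptions. Txnip and Rps12 were among the 6 genes inside the threshold in the comparison that chose the noncoding genes, and Rps10 was just outside it.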

How the data were processed

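The authors mapped single reads with STAR 2.7.3 to GRCm38 and counted them on exons with featureCounts. The deposited table holds these raw counts. Per the file headers featureCounts was 2.0.1 with Ensembl release 102, whereas the processing notes name Subread 1.6.4. They were fitted by edgeR 4.0.16 under R 4.3.3 (TMM, filterByExpr by group, robust quasi-likelihood fit), all 18 libraries in a model of 4 groups, with an adjusted p under 0.05 over 15247 genes. Alternatives used DESeq2 1.42.0, other filters, a GC trend (lowess span 0.3; GC content known for 15229 genes), the ribosomal RNA split and leaving out libraries. The mouse numbers of the labels pair the libraries: those of 1 mouse deviated together (mean r 0.283, lowest 0.119, for norepinephrine and HCl, and 0.351, lowest 0.155, for UK14304 and DMSO). Log2 CPM used a prior count of 2 and count ratios a prior of 1.

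The members and gene lists were chosen with earlier results of these data known. Named genes were the members and, of each list, those called in either fit (at most 4) or otherwise the 2 with the smallest p for norepinephrine, plus the 3 genes most like each noncoding gene. The fit was tested on simulated data. Intervals from counts cover counting error only. 0 per-sample columns were left unused.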

Additional observations from a re-analysis of the deposited data

Results flagged for a closer look

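Of 48 sets of values checked, each 1 quantity in 1 group, 3 held a library far from the others, and chance flags about 1 in 20. The log2 ratio of Gm15657 to Muc13 was -8.94 in the norepinephrine library of mouse 1, and the other norepinephrine libraries lay between -9.29 and -9.21. The ribosomal RNA share was 2.02% in the HCl library of mouse 4, against 0.346% to 0.414% in the other HCl libraries. It was 1.97% in the UK14304 library of mouse 1, against 0.340% to 0.619% in the other UK14304 libraries.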

How the results depend on the processing

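The number of genes called depended on the fit. For norepinephrine it was 0, and 16 with the replicate block (mouse), 36 with the block and the GC trend removed, 16 with the block and the ribosomal RNA split, 15 with the block and only the agonist and its vehicle, and 52 in DESeq2 with the block. For UK14304 it was 6, and 22 with no filter, 186 with the block, 624 with the block and the GC trend, 78 with the block and the ribosomal RNA split, 1 with only the agonist and its vehicle, 525 with that and the block, 44 in DESeq2, 255 in DESeq2 with the block and 0 in the 11 libraries under 1% ribosomal RNA. Leaving out each library gave 0 to 0 for norepinephrine and 2 to 11 for UK14304, with 2 without DMSO replicate 1 or 4, 3 without DMSO replicate 2 or 3, and 11 without norepinephrine replicate 4. The cause was not tested.

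The log2 fold changes of Gm13648, Gm15657 and Gm16215 kept their sign in every setting in which they were fitted. For UK14304 this describes the comparison that chose the genes and is no added support. For norepinephrine Gm13648 and Gm15657 did not pass, and their lowest adjusted p over the settings (edgeR or DESeq2) were 0.211 and 0.112. Gm16215 could not be fitted with at least 10 counts in every library. With UK14304 the log2 fold change of Gm15657 was 1.08 in the libraries under 1% ribosomal RNA, where a lone DMSO library is assumed to vary like the other groups, a setting chosen after seeing the data.

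Leaving out each library in turn gave norepinephrine differences of -0.35 to -0.14 for the log2 ratio Gm13648/Ttll10, 0.34 to 0.48 for Gm15657/Heg1, 0.38 to 0.51 for Gm15657/Muc13 and 0.58 to 0.98 for Gm16215/Clca3b. With 4 libraries a group the smallest exact p is 0.0286. With the replicate block the differences were 0.47, 0.48 and 0.80 for the latter 3, and the block alone changed no other call of the 9 genes with norepinephrine. With a prior of 5 counts Gm16215/Clca3b was 0.51. Low counts of Gm16215, 5 to 48, limit its precision.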
